A study of Mus musculus with 12 samples.

Results

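Loss of HIF-1α in hypoxic B cells was followed by comparing 3 libraries of Hif1a-deficient (KO) bone marrow B cells with 3 libraries of wild-type (WT) bone marrow B cells, all kept under hypoxia. The comparison took in every gene of the count table, 46983 Ensembl genes, of which 17506 had enough reads to be tested. These 6 libraries are those labelled hypoxic among the 12 of the series, and the other 6 came from the same genotypes under normoxia. The mouse cells were taken from bone marrow with magnetic beads and their total RNA was sequenced. In the labels the genotypes are HIF1a KO and WT. By the methods of the study, KO mice carry floxed Hif1a alleles (Hif1a f/f) and a Cre recombinase inserted in the Mb1 locus, and their controls were littermates that either lacked Cre or carried Mb1 cre/+. Mb1 is the older name of Cd79a, so Cre acts from the early B-lineage stages onward and occupies a Cd79a allele in KO mice. The age of the mice, and whether each library is 1 mouse, are stated in none of the sources used. The p-values below measure the spread between these libraries, part of which may be technical. WT libraries 1 and 2 held Y-linked reads and WT library 3 held none, so WT library 3 came from other animals.

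HIF-1α forms a DNA-binding factor with its partner ARNT, and its amount in the cell depends on oxygen. With oxygen present, prolyl hydroxylases of the EGLN family mark HIF-1α for destruction through the von Hippel-Lindau protein, and when oxygen is scarce the protein accumulates and enters the nucleus. Its well-known targets carry glucose into the cell, run glycolysis, keep pyruvate out of mitochondria, remove or remodel mitochondria, and include several oxygen-using enzymes that feed back on the pathway. B cells pass most of their development in bone marrow, a tissue low in oxygen.

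The hypoxia libraries held 27629175 to 32768948 counts each, against 27829370 to 36880082 in the normoxia libraries, and no pair of libraries of a group was close enough to be the same library. B-lineage RNA was read in all 6 libraries. Cd22, a receptor of B cells, stood at 273, 292 and 257 CPM (counts relative to library size, after TMM scaling) in KO, against 357, 418 and 388 CPM in WT. S100a9, a neutrophil gene, stood at 1022 to 2199 CPM in the same libraries, so the level of Cd22 does not measure purity. The libraries were not of 1 sex. WT hypoxia libraries 1 and 2 held 10872 and 10950 reads of 4 Y-linked genes and 20 and 18 reads of Xist, the RNA of the silenced X chromosome in females, whereas WT library 3 and KO libraries 2 and 3 held Xist and no Y-linked read. KO library 1 held both, with 58499 Xist reads and 1507 Y-linked reads. Under normoxia WT libraries 1 and 2 held 8626 and 11043 Y-linked reads and 21 and 19 Xist reads. WT library 3 and every KO library under normoxia held Xist and no Y-linked read. The normoxia values below therefore also compare groups of unlike sex. KO library 1 held Y-linked reads under hypoxia only, and the interaction test includes that difference. Genes of other cell types were also uneven under hypoxia. The 19 monocyte and macrophage genes summed to 2177 to 3177 CPM (sums over a list are not TMM-scaled) in KO libraries and 3459 to 4386 CPM in WT libraries, with no overlap. The 18 neutrophil genes summed to 3497 to 5170 CPM in KO and 4611 to 8329 CPM in WT, with overlap. None of the genes in these lists was at 0 in all 6 libraries. In bulk RNA, fewer cells of a type and less RNA per cell cannot be told apart.

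Under hypoxia 1723 genes differed between KO and WT cells at an adjusted p under 0.05 (edgeR quasi-likelihood test, Benjamini-Hochberg), which is 9.84% of the genes tested. Of these, 826 (4.72%) were higher in KO cells and 897 (5.12%) were lower. Large changes ran mostly downward: 204 genes fell by more than 2-fold and 24 rose by more than 2-fold. The median log2 fold change over all genes was -0.03. The 1723 calls were 648 with the low-Xist libraries as a covariate, 649 without KO library 1, 98 after adjusting for monocyte and neutrophil gene levels, and 17 among the 7 libraries holding Xist and no Y-linked read. Under normoxia 4 genes (0.0228%) passed the same test, with 1594 at an unadjusted p under 0.05 and 98 by DESeq2. Narf, Cd79a and Ankrd37 were among them, all lower in KO. For 73 genes (0.417%) the difference between genotypes under hypoxia itself differed from that under normoxia (interaction test of the same fit), and all 73 were among the genes called under hypoxia, 55 lower and 18 higher. With the library number as a block within each genotype 188 genes passed the interaction test, 70 of the 73 among them.

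The targeted gene was read in every library. Hif1a (ENSMUSG00000021109, mm10 chr12:73901375-73947530) had 136, 127 and 120.05 CPM in KO libraries, against 84.2, 84.3 and 110.5 CPM in WT libraries. The KO libraries were all above the WT libraries, with a log2 fold change of 0.46 ± 0.10 (SE) and an adjusted p of 0.013. Counts over the whole gene do not check a deletion of part of it, and no read of the floxed exon could be set apart here. The call was lost in 7 of the 17 alternative fits. Cd79a (chr7:24897381-24902197), which encodes a signalling chain of the B cell receptor and carries the Cre insertion, had 784, 836 and 789 CPM in KO libraries, against 1505, 1637 and 1460.2 CPM in WT libraries. Every KO library was below every WT library in both conditions, with a log2 fold change of -0.93 ± 0.10 under hypoxia and -1.02 under normoxia. Within 5 Mb of Hif1a 5 of 74 other tested genes (6.76%) were called, and within 5 Mb of Cd79a 12 of 145 (8.28%), against 9.84% of all genes.

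Many genes known to answer to low oxygen were lower in KO cells. In 9 lists of such genes 123 of 128 members had enough reads to be tested, 53 were called lower in KO cells (43.1%, against 5.12% of all genes) and 3 were called higher. Their median log2 fold change was -0.50. The lists were drawn up with earlier results of these data known, so the shares describe them and are not independent evidence. The plot of 15 of these genes by library shows them at low levels under normoxia in both genotypes, high in WT cells under hypoxia, and in between in KO cells under hypoxia.

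**Figure D1:**
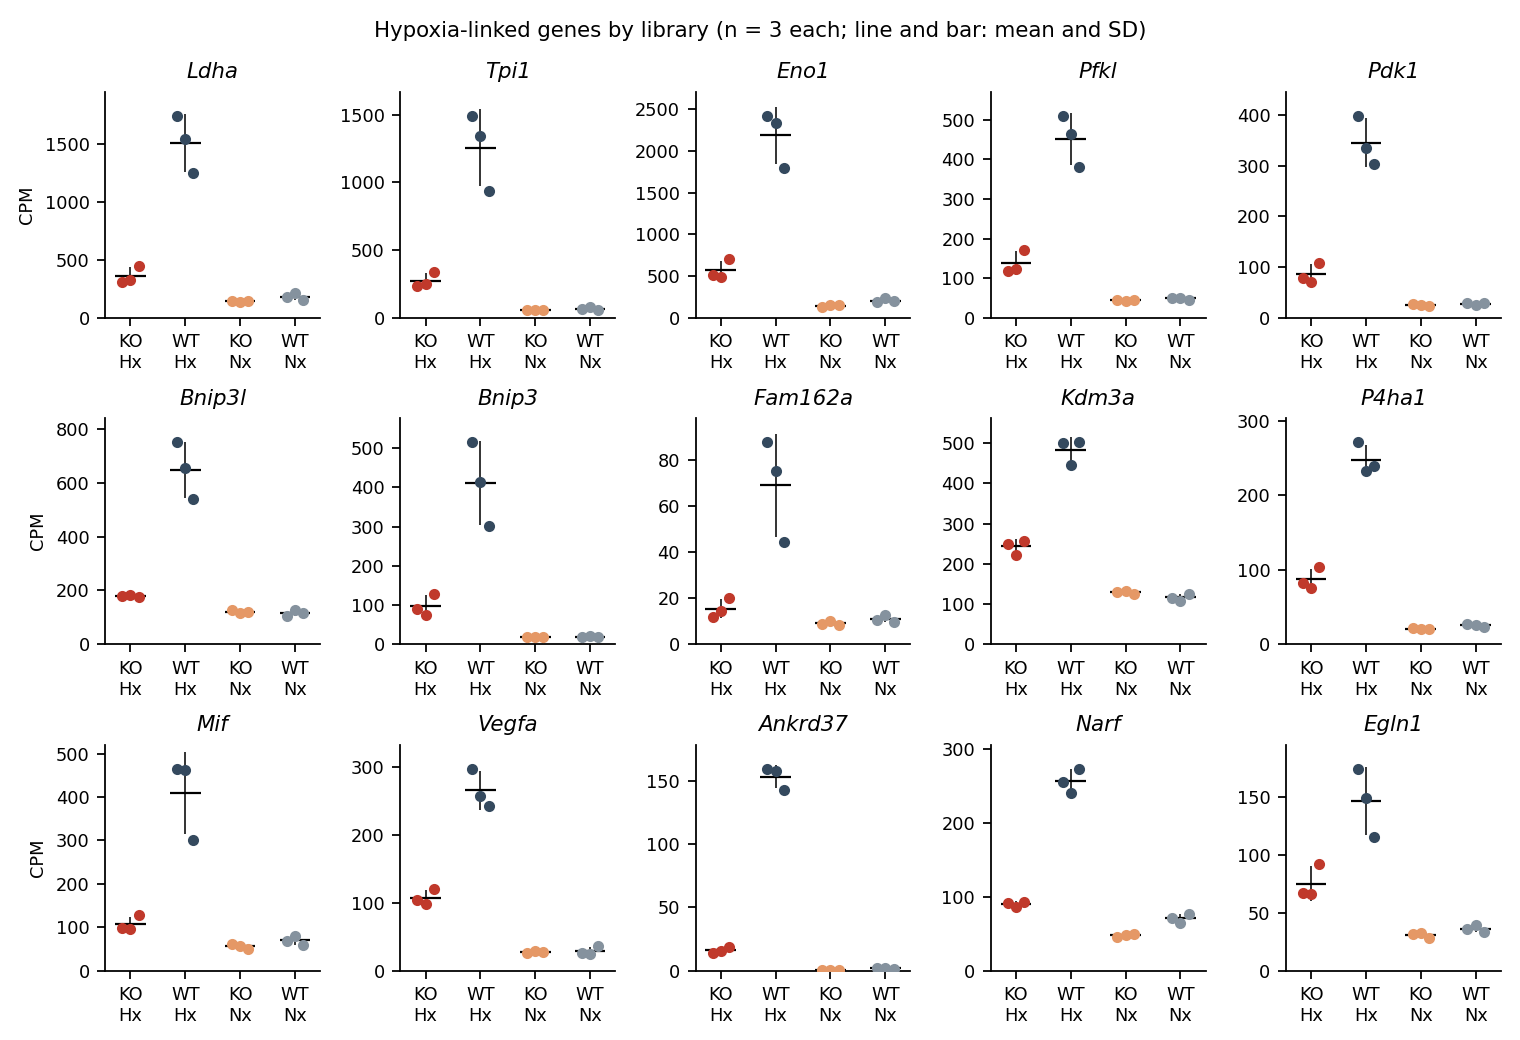
Level in CPM (linear axis from 0) of 15 hypoxia-linked genes in each library, for KO and WT cells under hypoxia (Hx) and under normoxia (Nx). Points are libraries, the line is the mean and the bar the SD of 3 libraries. In all 15 panels the 3 KO hypoxia libraries lie below the 3 WT hypoxia libraries.

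The core letters of the hypoxia response element, ACGTG or GCGTG on either strand, were looked for in RefSeq promoter windows of 300 bases (250 before to 50 after a start, build GRCm38.p6), which matched 11484 of the 17506 tested genes. They occurred in 60.6% of all these windows, in 55.1% of those of genes called lower, in 68.3% of those of genes called higher, and in 79.1% (34 of 43) of those of genes called lower in the 9 hypoxia lists. The stricter ACGTG alone occurred in 24.8% of all windows, 24.9% of the lower genes, 29.5% of the higher genes and 60.5% (26 of 43) of the lower genes in the hypoxia lists. Windows of the hypoxia list genes had a median GC content of 64.7%, against 60.3% over all windows. A match is only a run of letters, and its part in any change was not tested. Shown here are upstream stretches of the called gene with the smallest adjusted p, or the next with an entry, in each of 5 lists, with Ldha added after its values were seen, because these genes lead the lower calls. Exonic bases are left out, and capitals mark the core letters on either strand (CACGT and CACGC are the same letters read from the other strand). The stretches lie at chr8:124949346-124949410 (Egln1, minus strand), chr4:150236458-150236512 (Eno1, plus), chr7:46845629-46845803 (Ldha, plus), chr7:138909520-138909653 (Bnip3, minus), chr6:71632991-71633167 (Kdm3a, minus) and chr8:45999968-46000100 (Ankrd37, minus).
Egln1: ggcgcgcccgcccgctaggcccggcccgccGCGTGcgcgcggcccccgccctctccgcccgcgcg
Eno1: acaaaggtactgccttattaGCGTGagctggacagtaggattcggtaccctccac
Ldha: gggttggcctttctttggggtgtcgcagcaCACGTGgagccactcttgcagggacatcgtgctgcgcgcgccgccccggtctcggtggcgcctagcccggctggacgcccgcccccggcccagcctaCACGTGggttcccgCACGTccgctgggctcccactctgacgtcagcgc
Bnip3: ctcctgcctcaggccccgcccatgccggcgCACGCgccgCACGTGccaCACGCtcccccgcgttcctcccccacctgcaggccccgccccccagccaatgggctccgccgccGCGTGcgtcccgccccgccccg
Kdm3a: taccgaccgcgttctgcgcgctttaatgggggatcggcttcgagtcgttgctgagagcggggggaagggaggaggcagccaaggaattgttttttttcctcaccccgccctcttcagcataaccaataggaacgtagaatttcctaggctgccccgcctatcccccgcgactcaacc
Ankrd37: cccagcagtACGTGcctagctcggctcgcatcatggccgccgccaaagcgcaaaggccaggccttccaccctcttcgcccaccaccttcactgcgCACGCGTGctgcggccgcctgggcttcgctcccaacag
The Ldha and Bnip3 stretches held 5 matches each, the Ankrd37 stretch 3 and the Egln1 and Eno1 stretches 1 each, while the single match of the Kdm3a window lay in its transcribed part. For Ldha and Ankrd37 the RefSeq start lies 4329 and 5857 bases from the gene start of the GENCODE annotation. Bnip3l, which had the smallest adjusted p of the mitochondrial list, was not in the promoter table.

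In the list of HIF subunits and oxygen sensors, which also holds Cited2, Bhlhe40 and Bhlhe41, 14 genes were tested. Of these, 4 were called lower in KO cells and Hif1a itself higher, beside 5.12% and 4.72% of all genes. Egln1, the main prolyl hydroxylase that marks HIF-1α for destruction, had 67.2, 65.9 and 92.4 CPM in KO libraries, against 174, 149 and 115 CPM in WT libraries. Every KO library was below every WT library, with a log2 fold change of -0.96 ± 0.15 and an adjusted p of 0.0027. Cited2, which competes with HIF-1α for its coactivators, was at 68.6, 69.4 and 70.1 CPM in KO, against 96.5, 92.9 and 85.1 CPM in WT, a log2 fold change of -0.40 (adjusted p = 0.0041). Bhlhe40 and Bhlhe41, a pair of transcriptional repressors, fell by 0.62 and 0.61 on the log2 scale. The Bhlhe40 call was lost in 6 of the 17 alternative fits. Bhlhe41, Egln3, Arnt and Epas1 were chosen after their values were seen. Egln3, another EGLN hydroxylase, was not called: it had 54.3, 50.9 and 88.2 CPM in KO libraries, against 139.96, 100.4 and 69.7 CPM in WT libraries, so that KO library 3 was above WT library 3. The partner subunit Arnt (99.8, 85.1 and 97.6 CPM in KO, against 94.1, 90.9 and 95.3 CPM in WT) and Epas1, which encodes HIF-2α (4.34, 6.13 and 3.79 CPM in KO, against 5.37, 3.94 and 4.95 CPM in WT), overlapped between genotypes and were not called, Arnt with a log2 fold change of 0.01 ± 0.08.

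Glucose uptake, glycolysis and lactate export had the lowest median of 34 lists, the sex-linked genes left aside. Of 23 members, 17 were called lower and 1 higher, beside 5.12% and 4.72% of all genes. The interaction test was also passed by 12 of them, beside 0.417% of all genes. The median log2 fold change was -1.22 under hypoxia and -0.23 under normoxia. In 21 of the 23 genes all KO libraries lay below all WT libraries, against 16.3% of all genes in that direction. Ldha, the lactate dehydrogenase chain that turns pyruvate into lactate, had 309, 323 and 451 CPM in KO libraries, against 1741, 1542 and 1246 CPM in WT libraries. The groups were far apart (log2 fold change -2.06 ± 0.17, adjusted p = 2.3e-05), and the normoxia libraries stood at 147, 139 and 149 CPM in KO and 179, 211 and 152 CPM in WT. Tpi1, triose phosphate isomerase, showed the same order with 234, 250.01 and 338 CPM in KO libraries, against 1490.1, 1342 and 938 CPM in WT libraries. Its log2 fold change of -2.20 ± 0.18 was among the 10 largest falls by the rule for named genes. Eno1, the enolase of the lower glycolytic steps, had 515, 493 and 705 CPM in KO libraries, against 2421, 2343 and 1799 CPM in WT libraries, and Pfkl, a chain of phosphofructokinase, had 117, 124 and 172 CPM in KO libraries, against 509, 463 and 379.9 CPM in WT libraries. Their log2 fold changes were -1.94 ± 0.15 and -1.71 ± 0.14. In all of these, KO library 3 was the highest of the KO libraries and WT library 3 the lowest of the WT libraries, so the gap between genotypes was smallest in the libraries numbered 3.

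Further members were taken up after their values were seen. Slc2a1, the glucose transporter GLUT1, was at 51.3, 48 and 77.4 CPM in KO, against 164, 139 and 108 CPM in WT (log2 fold change -1.22), and Pgk1, phosphoglycerate kinase, at 339, 355 and 564 CPM in KO, against 1884, 1572 and 1154 CPM in WT (log2 fold change -1.87). The pair of monocarboxylate transporters moved in opposite directions. Slc16a3 (MCT4), a lactate exporter, had 84.1, 73.5 and 152 CPM in KO libraries, against 379, 308 and 225 CPM in WT libraries, and fell by 1.56 on the log2 scale. Slc16a1 (MCT1) had 215, 215 and 222 CPM in KO libraries, against 136, 120.1 and 127 CPM in WT libraries, and was the list's only gene called higher, with a log2 fold change of 0.77 ± 0.08 and an interaction of 0.66 (adjusted p = 0.019). Gapdh was counted at 11.8, 10.3 and 17.8 CPM in KO, against 37.4, 34.4 and 124 CPM in WT, was high in WT library 3 alone, and was not called (adjusted p = 0.059). Gapdh, Eno1, Pgk1 and Tpi1 have near-identical copies elsewhere in the genome, and how the authors counted reads shared with such copies is not stated, so their levels are uncertain.

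The kinases that close the entry of pyruvate into mitochondria fell as well. Pdk1, pyruvate dehydrogenase kinase, had 79.2, 71.3 and 108 CPM in KO libraries, against 398, 334 and 303 CPM in WT libraries, a log2 fold change of -2.004 ± 0.14 (adjusted p = 1.2e-05) and an interaction of -1.85. The KO libraries kept 71.3 to 108 CPM, above the 26.8, 24.8 and 23.1 CPM of KO cells under normoxia. Pdk2 and Pdk3 were lower by 0.76 and 0.45 on the log2 scale, whereas Pdha1, the catalytic chain that these kinases inhibit, was higher, at 113, 113 and 104 CPM in KO, against 85.7, 85.7 and 88.3 CPM in WT (log2 fold change 0.34). These were the 4 called of 7 tested members, beside 9.84% of all genes. Pdk3 and Pdha1 are X-linked, in groups of unlike sex, and the calls of Pdk2, Pdk3 and Pdha1 were lost in 8, 7 and 4 of the 17 alternative fits, low Xist as a covariate among them. Of 9 tested glycogen genes 2 were lower, beside 5.12% of all genes, among them Gbe1, the branching enzyme (log2 fold change -0.60). The Gbe1 call was lost in 6 of the 17 alternative fits.

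Of 13 genes of mitophagy and of hypoxia-remodelled mitochondria, 8 were called and all 8 were lower in KO cells, beside 5.12% of all genes. The median log2 fold change over the 13 was -0.88, and -0.09 under normoxia. Bnip3l, a receptor on the outer mitochondrial membrane that recruits autophagosomes, had 181, 185 and 176 CPM in KO libraries, against 750.2, 654 and 539.9 CPM in WT libraries. The KO libraries barely differed among themselves and lay above the normoxia libraries, which held 126, 115 and 121 CPM in KO and 105, 128 and 115 CPM in WT. The log2 fold change was -1.84 ± 0.11 and the interaction -1.91 with an adjusted p of 0.00017. Its relative Bnip3 had 90.5, 75.1 and 129 CPM in KO libraries, against 515, 415 and 302 CPM in WT libraries, a log2 fold change of -2.06 ± 0.21. In KO cells under hypoxia Bnip3 also stayed above the normoxia libraries, which held 19.1, 19.5 and 17.7 CPM in KO and 19.1, 21.3 and 17.5 CPM in WT. Fam162a, a mitochondrial protein linked to hypoxic cell death, had 12, 14.4 and 19.9 CPM in KO libraries, against 87.7, 75.3 and 44.3 CPM in WT libraries. Cox4i2, the hypoxic isoform of a cytochrome c oxidase subunit, was a low gene with 9, 13 and 20 reads in KO libraries, against 159, 122 and 78 reads in WT libraries. Its fold change of -3.18 ± 0.44 on the log2 scale rests on those reads.

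JmjC histone demethylases need oxygen for their reaction, and 5 of 16 were called, all lower in KO cells, beside 5.12% of all genes. Kdm3a, which removes methyl groups from lysine 9 of histone H3, had 250.1, 223 and 258 CPM in KO libraries, against 500.4, 447 and 502 CPM in WT libraries. Spread within each genotype was small, the log2 fold change was -0.99 ± 0.08 (adjusted p = 2.3e-05) and the interaction -1.14. Jmjd6 had 60.6, 70.4 and 67.3 CPM in KO libraries, against 159, 141 and 109.99 CPM in WT libraries, and Kdm5b and Kdm4b fell by 0.61 and 0.43 on the log2 scale. The median of the list was 0.03. Of the 6 collagen hydroxylases, which also use oxygen, 3 were lower, beside 5.12% of all genes: P4ha1 (82, 75.9 and 103 CPM in KO, against 271, 233 and 239 CPM in WT, log2 fold change -1.51 ± 0.11), Plod3 (-0.53) and P4hb (-0.36). Their calls were lost in 1, 3 and 6 of the 17 alternative fits.

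Of 14 secreted factors 2 were called, both lower (5.12% of all genes were lower). Mif, a cytokine that acts on macrophages, had 98.6, 96.9 and 127 CPM in KO libraries, against 465, 461 and 300.5 CPM in WT libraries, with a log2 fold change of -1.93 ± 0.18. Vegfa, the main growth factor of blood vessels, had 104, 98 and 119.9 CPM in KO libraries, against 298, 257 and 243 CPM in WT libraries, with a log2 fold change of -1.31 ± 0.13. Both also passed the interaction test, at -1.62 and -1.25.

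Among 21 other canonical hypoxia-induced genes, 9 were called and all 9 were lower, beside 5.12% of all genes. Ankrd37, an ankyrin repeat protein and established HIF target, had 14.2, 15.4 and 18.4 CPM in KO libraries, against 159, 158 and 143 CPM in WT libraries, the smallest adjusted p of the whole comparison (5.7e-08). The difference was present at low level under normoxia too, where KO libraries had 0.307, 0.382 and 0.276 CPM and WT libraries 2.24, 1.93 and 1.33 CPM. On the log2 scale it was -3.26 ± 0.14 under hypoxia and -2.49 under normoxia, with an interaction of -0.77 that did not pass the test (adjusted p = 0.41). Narf, a protein that binds prelamin A, had 91.1, 86.2 and 93.1 CPM in KO libraries, against 255, 240.4 and 273 CPM in WT libraries, and was also lower in KO under normoxia (45.4, 48.9 and 49.5 CPM in KO, 71.5, 64.7 and 76.3 CPM in WT). Its difference was larger under hypoxia, with an interaction of -0.94 (adjusted p = 0.0029). Ddit4, an inhibitor of mTORC1, had 74.2, 87.5 and 92.9 CPM in KO libraries, against 304, 267 and 198 CPM in WT libraries, and Zfp395 fell by 1.04 on the log2 scale.

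**Figure D2:**
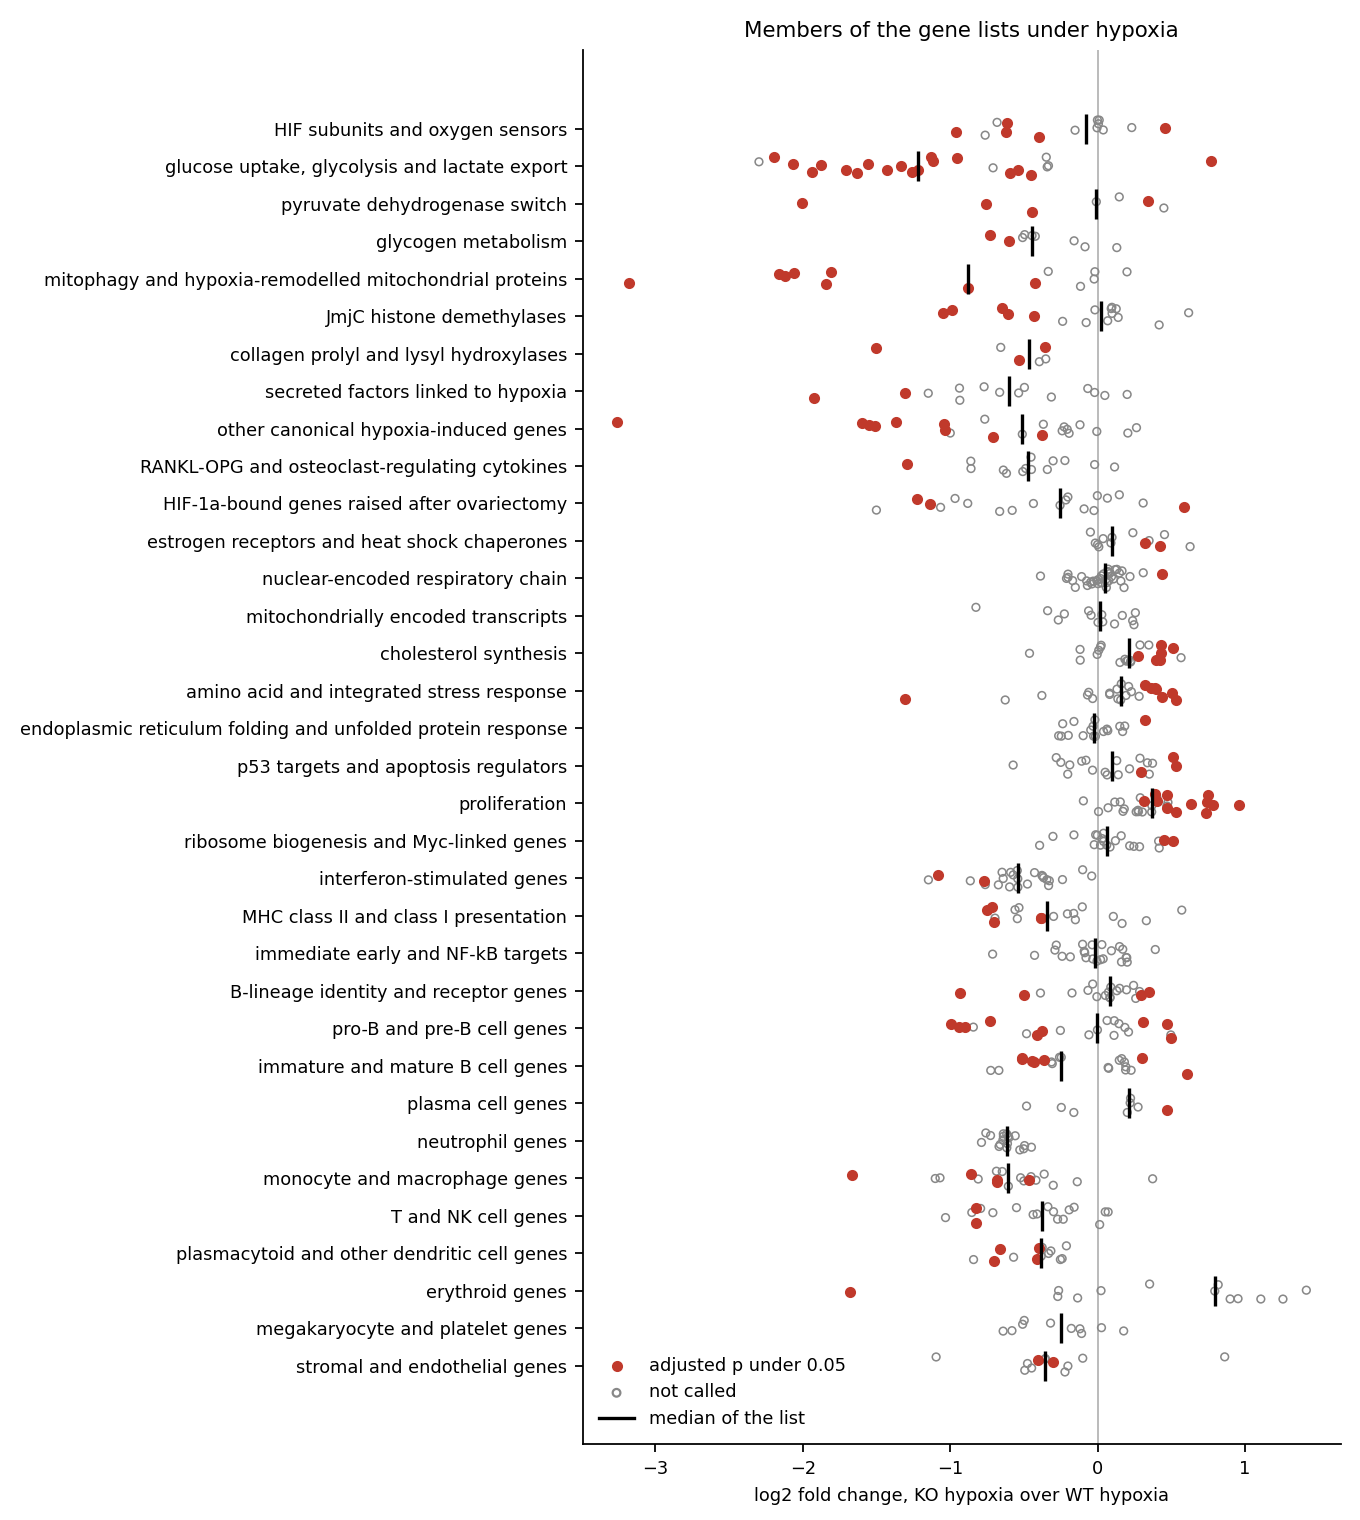
Log2 fold change of KO hypoxia over WT hypoxia (horizontal axis) for every tested member of 34 gene lists (rows). Red points passed an adjusted p of 0.05, open points did not, and the black line is the median of the list. Glycolysis (median -1.22) and the mitochondrial list (-0.88) lie farthest to the left, and proliferation (0.37) lies to the right.

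The alternative fits bear on this group unevenly. Of the 53 genes of the hypoxia lists called lower, all 53 were called with DESeq2 and with RLE scaling, 36 to 51 when 1 library was left out, 39 with low Xist as a covariate, 24 with the monocyte and neutrophil levels as covariates, 21 with only the libraries that hold Xist, and 7 when KO library 1 was also left out for its Y-linked reads. The Xist-only fits keep a single WT library in each condition. Ldha, Tpi1, Bnip3l, Kdm3a, Vegfa, Ankrd37 and Narf were called in every one of the 17 fits, and no called gene shared with an alternative fit had the opposite sign there.

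**Figure D3:**
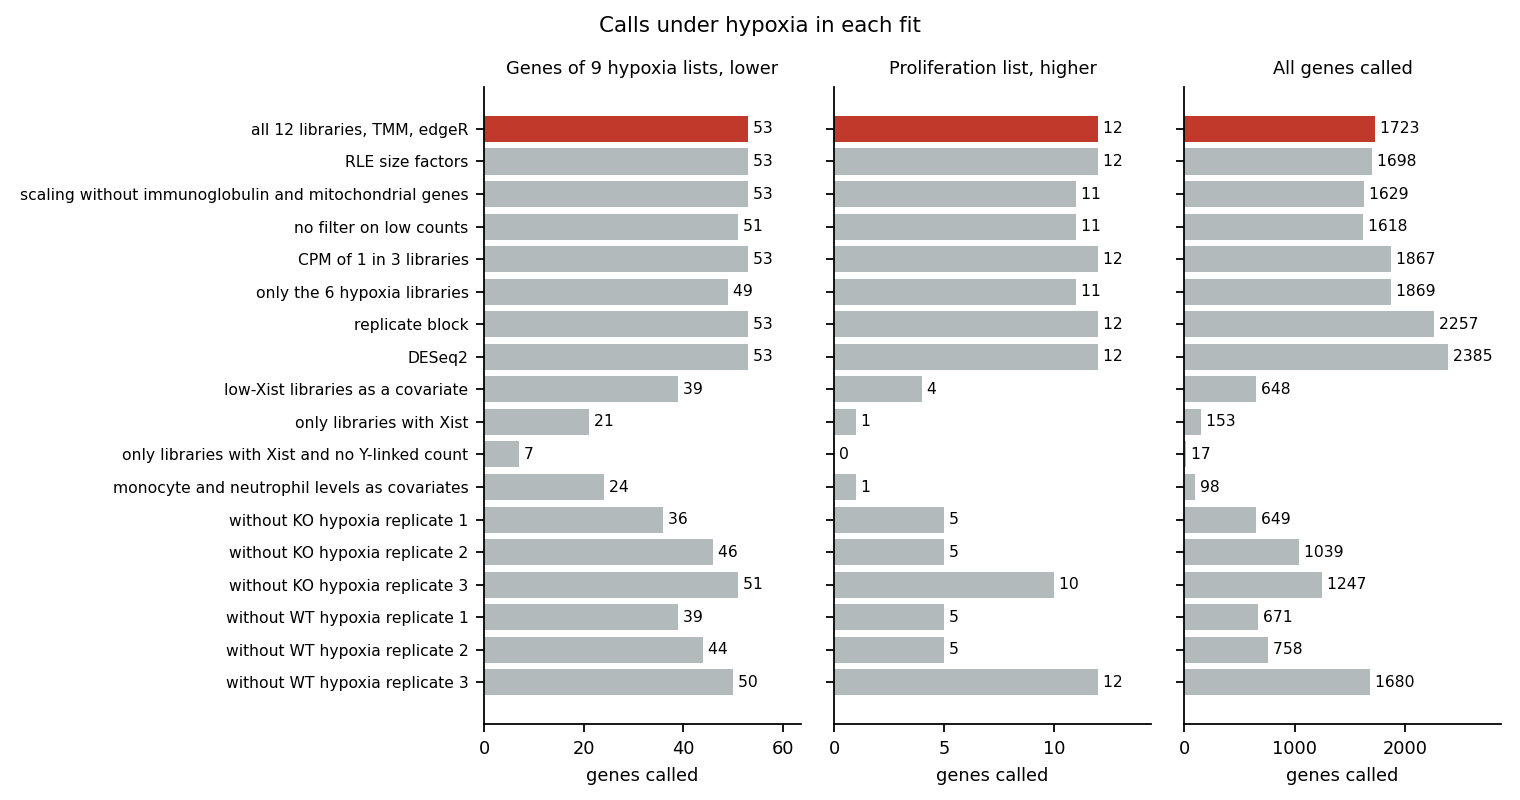
Number of genes called under hypoxia (horizontal axes, starting at 0) in the reported fit (red) and in each of 17 alternative fits (grey), for the 53 lower genes of 9 hypoxia lists (left), the 12 higher genes of the proliferation list (middle) and all genes (right). Of the hypoxia list genes 7 remain in the smallest fit, in which 17 genes are called in all.

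Of 29 proliferation genes 12 were called and all 12 were higher in KO cells, beside 4.72% of all genes, with a median log2 fold change of 0.37 under hypoxia and -0.08 under normoxia. In 19 of the 29 all KO libraries were above all WT libraries, against 15.4% of all genes in that direction. Kif11, the kinesin that separates the spindle poles, had 244, 275 and 241 CPM in KO libraries, against 137, 107 and 146 CPM in WT libraries, a log2 fold change of 0.96 ± 0.11 and an adjusted p of 0.00033. Under normoxia it stood at 186, 229.9 and 196 CPM in KO and 186, 174 and 176 CPM in WT, between the hypoxic groups. Ccna2, cyclin A2, had 148, 149.96 and 131 CPM in KO libraries, against 79.4, 74.2 and 101 CPM in WT libraries, Top2a, a topoisomerase of dividing cells, had 652, 664 and 572 CPM in KO libraries, against 375, 297 and 455 CPM in WT libraries, and Mki67, which encodes the Ki-67 antigen, had 1119.9, 941 and 846 CPM in KO libraries, against 553, 455 and 680.3 CPM in WT libraries. Their log2 fold changes were 0.75 ± 0.13, 0.74 ± 0.13 and 0.78 ± 0.15. WT library 3, the WT library with Xist, was the highest of the WT libraries for all 4. None of the 29 passed the interaction test, with Kif11 nearest (adjusted p = 0.054). Of the 12, 4 were called with low Xist as a covariate, 1 with the monocyte and neutrophil covariates, and 5 without KO library 1, KO library 2, WT library 1 or WT library 2.

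In the amino acid and integrated stress response list, 7 of 23 genes were called higher (4.72% of all genes were) and Vegfa, also a member, lower. Aars, alanyl-tRNA synthetase, had 283, 260.4 and 310.3 CPM in KO libraries, against 187, 201 and 213 CPM in WT libraries, and Phgdh, the first enzyme of serine synthesis, had 230.4, 269.6 and 273 CPM in KO libraries, against 161, 183 and 191 CPM in WT libraries. Both groups were apart (log2 fold changes 0.50 ± 0.08 and 0.53 ± 0.10), and the KO hypoxia libraries were also above all normoxia libraries. Cebpg, a partner of ATF4, was higher by 0.32. Of 22 cholesterol synthesis genes 6 were called, all higher, beside 4.72% of all genes. Cyp51, a sterol demethylase, was at 113, 118 and 112 CPM in KO, against 79.7, 73.4 and 102 CPM in WT (log2 fold change 0.43), with Sqle at 0.39 and Msmo1 at 0.43 on the log2 scale. All 6 calls were lost with low Xist as a covariate, with the monocyte and neutrophil covariates, without WT library 1 or 2, and without KO library 1 or 3. The ribosome biogenesis list had 2 of 21 called higher, beside 4.72% of all genes. They were Bop1 (0.45) and Rrp12 (0.51), whose calls were lost in 3 and 7 of the 17 alternative fits. In the p53 list 3 of 20 were higher, beside 4.72% of all genes: Aen (58.8, 59.7 and 67.2 CPM in KO, against 41.2, 42.1 and 45.1 CPM in WT), Trp53inp1 (1045, 1013 and 900.3 CPM in KO, against 691, 654 and 732 CPM in WT) and Ccng1 (0.29 on the log2 scale). Their calls were lost in 3, 4 and 12 of the 17 alternative fits.

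Of 38 nuclear-encoded subunits only Cycs, cytochrome c, was called, beside 9.84% of all genes. It was at 40.7, 46.8 and 39.4 CPM in KO, against 30.3, 32.2 and 31.4 CPM in WT (log2 fold change 0.44 ± 0.09), and the list median was 0.05. Of 14 mitochondrially encoded transcripts none was called by edgeR or DESeq2 and 1 had an unadjusted p under 0.05. The most abundant, mt-Co1, had 6889, 7916 and 5304 CPM in KO libraries, against 5212, 5837 and 5900.3 CPM in WT libraries. The groups overlapped, and mt-Cytb had a log2 fold change of 0.00 ± 0.19. The endoplasmic reticulum list had 1 of 18 called, beside 9.84% of all genes. This was Herpud1 (0.32), whose call was lost in 9 of the 17 alternative fits. Of 24 immediate early and NF-kB genes none was called by edgeR, 1 was by DESeq2 and 5 had an unadjusted p under 0.05, and Btg2 (-0.09) and Nfkb1 (-0.10) were the most abundant.

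**Figure D4:**
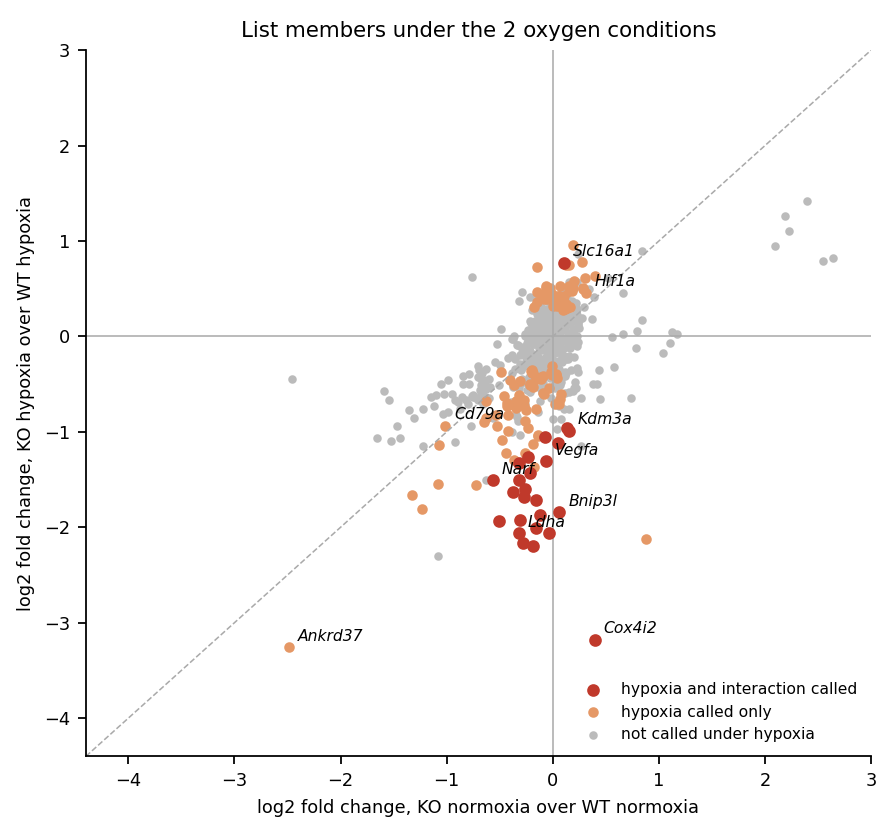
Log2 fold change of KO over WT under hypoxia (vertical) against the same under normoxia (horizontal) for the tested members of 34 gene lists. Red points passed the hypoxia and the interaction test, orange points the hypoxia test only, grey points were not called under hypoxia, and the dashed line marks equal differences. Most interaction genes lie far below the line, with Slc16a1 above it, while Ankrd37 (-3.26 and -2.49) and Cd79a (-0.93 and -1.02) lie near the line.

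The study asked whether HIF-1α acts on RANKL, the osteoclast-inducing cytokine encoded by Tnfsf11. From RNA-seq of such cells it reported that hypoxia raised Tnfsf11 in WT cells and much less without Hif1a. It also reported RT-PCR, flow cytometry, ChIP and luciferase reporter results for RANKL, none of which these counts measure. These libraries held very few Tnfsf11 reads: 2, 3 and 6 in KO libraries, against 2, 3 and 9 in WT libraries under hypoxia. Under normoxia they were 6, 7 and 3 in KO libraries and 4, 7 and 0 in WT libraries. The study's comparison of hypoxia with normoxia in WT cells was not tested here. Tnfrsf11b, which encodes the decoy receptor osteoprotegerin, had 0 reads in each KO hypoxia library, against 0, 0 and 3 in WT hypoxia libraries. Both genes were under the filter on low counts. Without that filter neither was called between KO and WT under hypoxia (adjusted p of 0.96 for Tnfsf11 and 0.56 for Tnfrsf11b, edgeR). Of the 14 tested cytokines and receptors of the list, 1 was called, beside 9.84% of all genes: Ltb, lymphotoxin beta, had 57, 91 and 66.6 CPM in KO libraries, against 193, 207 and 126 CPM in WT libraries, a log2 fold change of -1.30 ± 0.24 and an adjusted p of 0.0099. The study's list of genes both bound by HIF-1α and raised after ovariectomy had 3 of 19 tested members called, beside 9.84% of all genes. Scn4b (2.11, 2.13 and 1.83 CPM in KO, against 5.1, 4.33 and 4.75 CPM in WT, log2 fold change -1.22) and Aif1 (-1.14) were lower, and Fgf13 (0.58), which is X-linked, was higher. The calls of Aif1 and Fgf13 were lost in 10 and 9 of the 17 alternative fits. Aif1 is a macrophage gene, and its list median was -0.25. Of 13 estrogen receptor and heat shock genes 2 were higher, beside 4.72% of all genes. They were the heat shock factors Hsf2 (21.2, 22.2 and 18 CPM in KO, against 14.3, 16 and 15.5 CPM in WT) and Hsf1 (78.9, 78.8 and 75.4 CPM in KO, against 57.3, 69.9 and 59.7 CPM in WT). Their calls were lost in 10 and 11 of the 17 alternative fits.

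Of 20 B-lineage identity genes 4 were called, beside 9.84% of all genes. Beside Cd79a they were Cd22, an inhibitory receptor (273, 292 and 257 CPM in KO, against 357, 418 and 388 CPM in WT, log2 fold change -0.50), and the transcription factors Ikzf1 (0.35) and Tcf3 (0.30), both higher, whose calls were lost in 7 and 11 of the 17 alternative fits. Stage genes split. Of 21 pro-B and pre-B genes 6 were lower and 3 higher, beside 5.12% and 4.72% of all genes. Igll1, a chain of the surrogate light chain that pairs with heavy chain in pre-B cells, had 59.2, 50.9 and 40.6 CPM in KO libraries, against 92.8, 86.1 and 121 CPM in WT libraries. Dntt, the polymerase that adds bases at V(D)J joints, had 96.1, 89.7 and 81.5 CPM in KO libraries, against 131, 137 and 174 CPM in WT libraries. Both were lower in each KO library (log2 fold changes -0.99 ± 0.19 and -0.73 ± 0.14), as was the transcription factor Erg (-0.90). Calls of Igll1, Dntt and Erg were lost in 4, 2 and 5 of the 17 alternative fits. Irf4, a factor of light chain recombination and of plasma cells, was higher at 867, 883 and 781 CPM in KO, against 627, 599.6 and 598 CPM in WT. It was the 1 called gene of the 8 tested plasma cell genes, beside 9.84% of all genes. Of 21 genes of immature and mature B cells 5 were lower and 2 higher, beside 5.12% and 4.72% of all genes. Among the lower were Cd40 (33.6, 42.3 and 34.8 CPM in KO, against 49.9, 57.3 and 50.8 CPM in WT) and Tnfrsf13b (-0.36 on the log2 scale). Their calls were lost in 5 and 8 of the 17 alternative fits. Bach2, a repressor of plasma cell fate, was higher with 1123, 944 and 1022 CPM in KO libraries, against 768, 661 and 599 CPM in WT libraries (log2 fold change 0.61 ± 0.12).

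**Figure D5:**
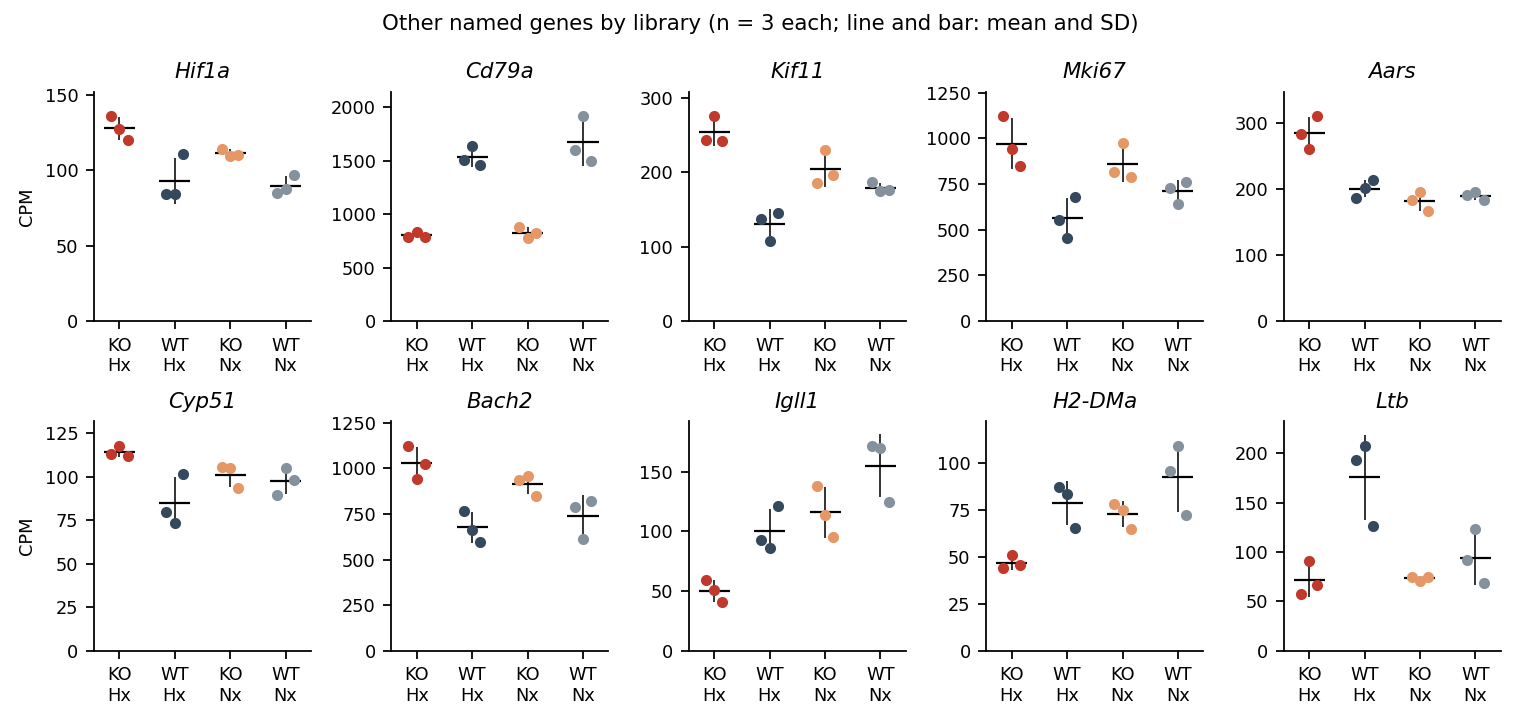
Level in CPM (linear axis from 0) of the targeted gene, the Cre-carrying gene and 8 genes of other lists in each library, for KO and WT cells under hypoxia (Hx) and normoxia (Nx). Points are libraries, the line is the mean and the bar the SD of 3 libraries. Kif11, Mki67, Aars, Cyp51 and Bach2 lie higher and Cd79a, Igll1, H2-DMa and Ltb lower in KO than in WT libraries under hypoxia.

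Of 18 MHC genes 5 were called, all lower, beside 5.12% of all genes: H2-DMa, which loads peptide onto class II molecules, had 43.9, 50.8 and 45.8 CPM in KO libraries, against 87.2, 83.8 and 65.5 CPM in WT libraries, H2-DMb2 had 34.3, 44.5 and 39.7 CPM in KO libraries, against 63, 72.3 and 59.3 CPM in WT libraries, and H2-Oa, Tap2 and Psmb8 were the others. Their log2 fold changes were -0.75, -0.72, -0.70, -0.39 and -0.39. Psmb8 was named after its values were seen. All 25 interferon-stimulated genes had negative log2 fold changes, with a median of -0.54, and 2 of the 25 were called lower, beside 5.12% of all genes, Cxcl10 (0.519, 0.548 and 0.751 CPM in KO, against 1.01, 1.2 and 1.65 CPM in WT) and Gbp2 (7.63, 5.26 and 7.54 CPM in KO, against 13.3, 11.7 and 9.97 CPM in WT). Without KO library 3 the number called was 14, and without KO library 1 or WT library 2 it was 0. The MHC list had 2 lower calls without KO library 1, WT library 1 or WT library 2, and 9 without WT library 3.

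Macrophages and dendritic cells also express many of these genes, and markers of both were lower in KO libraries. Of 19 monocyte and macrophage genes 5 were called, all lower, with a median of -0.61 under hypoxia and -0.63 under normoxia. Over all genes 5.12% were called lower, the share to set beside the count of each list here. Ccr2, a chemokine receptor of monocytes, had 40.1, 33.8 and 34.7 CPM in KO libraries, against 74.6, 61.7 and 60.3 CPM in WT libraries, Ly6c2 had 159, 123 and 184 CPM in KO libraries, against 228, 249 and 269.9 CPM in WT libraries, and Ctss and Cd68 fell by 0.46 and 0.68 on the log2 scale. In each of these the groups did not overlap. Calls of Ccr2, Ly6c2, Ctss and Cd68 were lost in 3, 3, 3 and 8 of the 17 alternative fits. Of 13 plasmacytoid and other dendritic cell genes 4 were lower: Siglech (411, 394 and 399 CPM in KO, against 565, 476 and 542 CPM in WT), Cox6a2 (-0.66 on the log2 scale), Klk1 (-0.71) and Flt3 (-0.41). Their calls were lost in 7, 3, 7 and 9 of the 17 alternative fits. Of 18 neutrophil genes none was called by edgeR or DESeq2 and none had an unadjusted p under 0.05, with S100a9 at 1163, 1022 and 1411 CPM in KO, against 1334, 2182 and 2199 CPM in WT and S100a8 at 589, 583 and 839 CPM in KO, against 722, 1171 and 1241 CPM in WT and a list median of -0.62. T and NK cell genes had 2 of 18 lower, Zap70 (-0.82) and Cd8b1 (-0.82), and the stromal and endothelial list 2 of 12, Pecam1 (-0.31) and Cdh5 (-0.41). The calls of these 4 genes were lost in 7, 8, 9 and 9 of the 17 alternative fits. Megakaryocyte genes had none of 10 called by either tool and none at an unadjusted p under 0.05, with Itgb3 at -0.11 and Ppbp at -0.18. The erythroid list had a median of 0.79 with no gene called higher and 1 of 13 called lower: Ermap, a red cell membrane protein, had 4.12, 2.77 and 2.94 CPM in KO libraries, against 10.6, 11.9 and 9.01 CPM in WT libraries, and fell by 1.68 on the log2 scale, with an interaction of -1.40. Summed over each list, dendritic cell genes stood at 2085 to 2184 CPM in KO and 2541 to 2851 CPM in WT, T and NK cell genes at 214 to 233 CPM in KO and 272 to 283 CPM in WT, and stromal genes at 214 to 223 CPM in KO and 261 to 301 CPM in WT, all without overlap. Erythroid genes overlapped, at 465 to 1049 CPM in KO and 423 to 774 CPM in WT. The part of these cells in the B-cell, MHC and interferon results was not tested. Mean log2 CPM of the monocyte genes was 4.78 to 5.56 in KO and 5.82 to 5.93 in WT hypoxia libraries, without overlap. A fit with this level as a covariate therefore cannot set these cells apart from genotype. In that fit, which also held the neutrophil level, 98 of 17506 genes were called in all. None of them was among the 18 MHC genes or the 21 pro-B and pre-B genes. The median log2 fold change of the MHC list was -0.31 in that fit, against -0.34 in the reported fit, and that of the interferon list was -0.14, against -0.54.

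Outside the lists, the genes with the largest changes were mostly low in these cells. Dlc1, a GTPase-activating protein, had 3, 5 and 1 reads in KO libraries, against 103, 37 and 22 reads in WT libraries, and Col6a6, a collagen VI chain, had 3, 5 and 4 reads in KO libraries, against 79, 55 and 68 reads in WT libraries. Their log2 fold changes were -4.21 ± 0.75 and -4.12 ± 0.50. Cox7a1, a cytochrome c oxidase subunit of muscle, had 0.153, 0.742 and 0.816 CPM in KO libraries, against 5.8, 4.65 and 2.9 CPM in WT libraries, Atp7b, a copper transporter, had 0.977, 1.45 and 1.67 CPM in KO libraries, against 12.2, 7.6 and 4.92 CPM in WT libraries, and Cntn2, a neural adhesion protein, had 1.5, 2.29 and 4.11 CPM in KO libraries, against 11.8, 14.5 and 15.5 CPM in WT libraries. Mgarp, a mitochondrial protein, belonged to this group and to the mitochondrial list (2.08, 1.68 and 4.67 CPM in KO, against 15.5, 14.1 and 7.13 CPM in WT). All of these KO libraries lay below the WT libraries. Calls of Dlc1, Col6a6, Cox7a1, Atp7b, Cntn2 and Mgarp were lost in 4, 2, 3, 3, 4 and 4 of the 17 alternative fits. In the other direction Eqtn, a sperm membrane protein, had 9.95, 4.74 and 9.93 CPM in KO libraries, against 0.709, 1.02 and 1.52 CPM in WT libraries, with a log2 fold change of 2.92 ± 0.35. Nyx, a leucine-rich repeat protein of the retina, had 203, 84.2 and 214 CPM in KO libraries, against 24.4, 17.1 and 31.8 CPM in WT libraries, with the second largest rise by that rule (2.77 ± 0.57). Nyx is X-linked, and its call was lost in 7 of the 17 alternative fits, low Xist as a covariate among them. Slc6a19, a transporter of neutral amino acids, was higher by 1.64 ± 0.15 with little spread (8.03, 8.42 and 10.2 CPM in KO, against 3, 2.68 and 2.87 CPM in WT) and passed the interaction test at 1.35. Other genes among the 10 largest rises were Synpo2 (1.34), Adarb1 (1.27), Fam221a (1.22), Trim69 (1.19), the miRNA gene Mir133a-2 (1.18) and Tubd1 (1.18). Their calls were lost in 4, 3, 2, 8, 3 and 2 of the 17 alternative fits. Reads over a miRNA gene in these libraries do not measure the mature miRNA.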

How the data were processed

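Total RNA of mouse bone marrow B cells was sequenced by the authors from 12 libraries, 3 for each genotype and oxygen condition. The deposited values are raw read counts per Ensembl gene, unnormalized. The submitters' processing notes name mm10, CASAVA and Bowtie 0.12.2. For the counter, the annotation and the use of strand, the entry is: not given in the sources used here. Symbols came from GENCODE (46488 of 46983 identifiers). Library totals were 27629175 to 36880082 counts. Genes were filtered with filterByExpr, scaled by TMM and tested with the quasi-likelihood F test of edgeR 4.0.16 (R 4.3.3, limma 3.58.1) over all 12 libraries as 4 group means, with Benjamini-Hochberg adjustment over 17506 genes and calls at an adjusted p of 0.05. The SE is the log2 fold change divided by the square root of F. CPM are scaled by TMM. The code was tested on simulated data. Alternatives were DESeq2 1.42.0, other scalings and filters, covariates and the replicate number as a block (also within each genotype, chosen after seeing the data). Further fits used only the 6 hypoxia libraries or only libraries holding Xist, or left out each hypoxia library. Named genes were Hif1a, Cd79a, Tnfsf11 and Tnfrsf11b, up to 4 called genes with the smallest adjusted p in each list (up to 2 of the highest CPM where none was called), and the 10 largest changes each way among non-overlapping genes with a mean CPM of at least 1 in the higher group, without predicted models, pseudogenes, immunoglobulin and T cell receptor segments and sex-linked genes. Other named genes are stated as chosen after their values were seen. The members and lists were chosen with earlier results of these data known. A few genes that this rule names are not reported here.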

Additional observations from a re-analysis of the deposited data

Results flagged for a closer look

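The genotype difference was itself different between hypoxia and normoxia, by the interaction test, for 19 of the genes named by the rule above. For genes lower in KO cells the interaction on the log2 scale was -1.91 for Bnip3l, -2.02 for Bnip3, -1.88 for Fam162a, -3.57 for Cox4i2, -2.01 for Tpi1, -1.74 for Ldha, -1.55 for Pfkl, -1.43 for Eno1 and -1.85 for Pdk1. It was -1.62 for Mif, -1.25 for Vegfa, -1.34 for Ddit4, -1.19 for P4ha1, -1.14 for Kdm3a, -0.98 for Jmjd6, -0.94 for Narf, -1.40 for Ermap and -4.02 for Col6a6, the last resting on 3 to 5 reads in each KO hypoxia library. Among these 19 genes Slc6a19 was the exception in direction, with an interaction of 1.35 and a higher level in KO cells under hypoxia. Slc16a1, named outside the rule, was positive too, and over all genes 18 of the 73 interactions were positive.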

How the results depend on the processing

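The 1723 genes called under hypoxia became 648 with low-Xist libraries as a covariate, 153 with only libraries holding Xist, 17 with only libraries holding Xist and no Y-linked count, and 98 with the monocyte and neutrophil levels as covariates. The fits on Xist libraries keep 1 WT library in each condition, whose spread is assumed to be that of the other groups. Leaving out 1 library gave 649 to 1680 genes, with 649 without KO replicate 1, 1039 without KO replicate 2, 671 without WT replicate 1 and 758 without WT replicate 2. The 73 interaction genes became 294 with DESeq2, 147 with the low-Xist covariate, and 22 to 193 when 1 library was left out, with 22 without KO replicate 1, 35 without KO replicate 2, 32 without WT replicate 1, 25 without WT replicate 2 and 193 without WT replicate 3. With the replicate number as a block 2257 genes were called under hypoxia and 79 in the interaction. Same-numbered KO and WT hypoxia libraries had correlations of only -0.0035, 0.086 and 0.065 across genes. Same-numbered KO hypoxia and WT normoxia libraries correlated at 0.11, 0.31 and 0.14, and WT hypoxia and KO normoxia libraries at -0.039, 0.026 and -0.080. For KO and WT normoxia libraries the values were 0.12, -0.085 and -0.079. Same-numbered hypoxia and normoxia libraries correlated at 0.18, -0.039 and 0.12 in KO and at 0.20, 0.36 and 0.43 in WT. The WT values across oxygen were the highest for each number, and what the numbers stand for was not tested. The replicate block within each genotype, added after the data were seen, gave 188 interaction genes. Other scalings and filters gave 1618 to 1867 genes, a fit on only the 6 hypoxia libraries 1869 and DESeq2 2385. Of the 102 genes of the naming rule that were called under hypoxia, 7 were called in every alternative fit. A call given above without a count of lost fits is therefore not shown to be stable. Sex and genotype are partly aligned in these libraries and the cause of the lost calls was not tested.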

Other observations

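Genes outside the lists, chosen after their values were seen, were also lower in KO cells. Grhpr, which reduces glyoxylate and hydroxypyruvate, had 17.4, 20.1 and 24.2 CPM in KO libraries, against 69.3, 71.1 and 56.7 CPM in WT libraries, and Galk1, galactokinase, had 26.8, 33.6 and 37.2 CPM in KO libraries, against 117, 111 and 82.4 CPM in WT libraries. Their log2 fold changes were -1.68 ± 0.13 and -1.67 ± 0.16. Slc37a4, the glucose-6-phosphate transporter of the endoplasmic reticulum, was at 16.9, 17.3 and 19.9 CPM in KO, against 42.2, 39.4 and 31.3 CPM in WT (log2 fold change -1.06), and Alkbh5, an RNA demethylase that uses oxygen, at 151, 148 and 169 CPM in KO, against 274, 227 and 231 CPM in WT (log2 fold change -0.64).

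Of 11 circadian clock genes looked up after values were seen, 3 were called lower and 1 higher, beside 5.12% and 4.72% of all genes. The other 7 (Per1, Per3, Cry1, Nr1d1, Clock, Arntl and Dbp) were not called. Ciart, a repressor in the clock, had 9.83, 13.1 and 13.5 CPM in KO libraries, against 41.3, 45.9 and 29.3 CPM in WT libraries, and Per2 had 9.04, 7.58 and 10.1 CPM in KO libraries, against 14.7, 16.4 and 17.4 CPM in WT libraries. Nr1d2, a nuclear receptor of the clock, was higher in KO cells with 60.5, 58.9 and 57.2 CPM in KO libraries, against 26.8, 27.8 and 38.5 CPM in WT libraries. Their log2 fold changes were -1.68 ± 0.18, -0.86 ± 0.13 and 0.92 ± 0.13, and that of Cry2 was -0.37. Calls of Ciart, Per2, Nr1d2 and Cry2 were lost in 1, 3, 3 and 10 of the 17 alternative fits. Foxm1, a regulator of the cell cycle, was at 139.9, 116 and 127 CPM in KO, against 64.3, 59.4 and 86.6 CPM in WT and E2f7, another, at 23.1, 18.4 and 19.7 CPM in KO, against 8.27, 8.38 and 13.8 CPM in WT, with log2 fold changes of 0.86 and 1.00. Nfe2l2, which encodes NRF2, and Gclc, of glutathione synthesis, were higher by 0.56 and 0.67 on the log2 scale. The calls of Foxm1, E2f7, Nfe2l2 and Gclc were lost in 3 of the 17 alternative fits each, namely the fits on libraries with Xist and the one with monocyte and neutrophil covariates. Of 205 tested immunoglobulin variable segments 23 were called higher and 0 lower, beside 4.72% and 5.12% of all genes, with a median log2 fold change of 0.28. These segments share sequence and their reads cannot be assigned with certainty.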
